A study of Mus musculus with 36 samples.

Results

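The genes described here encode 7 subunits of the GABA-A receptor: the alpha subunits Gabra2, Gabra3, Gabra4 and Gabra5, the beta subunits Gabrb1 and Gabrb2, and the delta subunit Gabrd. They were chosen by symbol, by a rule that uses no measured value, since several subunits of this receptor have been reported at lower levels in fragile X models. All 7 were found among the 78298 gene identifiers of the count table, and all 7 were among the 21172 genes with enough reads to be tested. RNA of hippocampal tissue was sequenced in 36 libraries from mice of 3 genotypes: wild-type (WT), lacking Fmr1 (Fmr1 knockout, KO) or lacking Shank3 (Shank3 KO). Vehicle or cannabidiol (CBD) was given to 6 mice of each genotype, which makes 6 groups. Fmr1 encodes the RNA-binding protein lost in fragile X syndrome, and Shank3 a scaffold of excitatory synapses. Injections were subcutaneous and went on for 7 days, and CBD was given at 5 mg/kg to males and 50 mg/kg to females, so sex and dose cannot be told apart among treated mice. The deposited metadata sheet puts 3 males and 3 females in each group. The strain, the age and the knockout alleles are not named in the labels, and each library was taken as 1 animal because every library carries its own animal code.

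The GABA-A receptor is a chloride channel opened by the transmitter GABA and is the main source of fast inhibition in the forebrain. A receptor is put together from several subunits, usually alpha and beta subunits with a gamma or a delta subunit, and the alpha subunit decides much of its place on the cell and its drug response. In rodent hippocampus, receptors with the alpha2 subunit lie at synapses, including those on the first stretch of the axon, while receptors with alpha4 and delta on dentate granule cells and with alpha5 on pyramidal cells lie largely outside synapses and carry a steady inhibitory current. CBD is a compound of the cannabis plant that does not act as an agonist at the main cannabinoid receptor of the brain.

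No difference between the genotypes or with CBD was called for any of the 7 subunit genes. In 16 comparisons, which gave 112 tests, 0 tests passed an adjusted p under 0.05 in edgeR's quasi-likelihood test. By rounded values 1 test had an unadjusted p under 0.05, and another stood at 0.05. DESeq2 and limma voom likewise called 0 of the 7 genes in each of the 16 comparisons. What did vary was the level of each gene from mouse to mouse, and 2 patterns in that variation are described after the comparisons. Gabra2 and Gabrb1 moved together from library to library, and Gabra3 was high where marker genes of CA3 and dentate neurons were low.

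Gabra2, Gabra4 and Gabrb1 lie in 1 cluster of subunit genes on chromosome 5. In an older mouse annotation (GENCODE M21, build GRCm38) Gabra4 and Gabrb1 start head to head on opposite strands, with gene spans that overlap by 196 bases, while Gabra2 lies 473899 bases from Gabra4 and 562263 bases from Gabrb1. Sequences upstream of their starts are shown as a description, since the distant pair, and not the head-to-head pair, varied together in these libraries. Whether these sequences have any part in that variation was not tested. They come from RefSeq (GRCm38.p6), run 5′ to 3′ on the strand of the gene and end at the base before the annotated start, or, for Gabra4, at the edge of an exon of Gabrb1 on the other strand. Capitals mark each CG dinucleotide, the site of DNA methylation in mammals.
Gabra2, chr5:71095850-71096099, minus strand: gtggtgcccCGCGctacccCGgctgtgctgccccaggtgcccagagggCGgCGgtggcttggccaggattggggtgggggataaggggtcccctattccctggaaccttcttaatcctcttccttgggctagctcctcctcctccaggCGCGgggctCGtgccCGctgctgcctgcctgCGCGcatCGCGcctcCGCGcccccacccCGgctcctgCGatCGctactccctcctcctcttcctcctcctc
Gabra4, chr5:71658364-71658558, minus strand: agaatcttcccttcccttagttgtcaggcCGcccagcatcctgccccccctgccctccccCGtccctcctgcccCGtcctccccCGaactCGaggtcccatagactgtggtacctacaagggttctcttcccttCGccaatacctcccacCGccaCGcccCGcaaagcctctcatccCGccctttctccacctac
Gabrb1, chr5:71699682-71699931, plus strand, the second of its starts: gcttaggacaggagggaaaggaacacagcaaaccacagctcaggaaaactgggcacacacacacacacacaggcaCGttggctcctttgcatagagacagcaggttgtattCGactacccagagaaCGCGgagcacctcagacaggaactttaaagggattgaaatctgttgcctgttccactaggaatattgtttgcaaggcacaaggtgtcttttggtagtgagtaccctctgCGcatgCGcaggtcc
The Gabra2 stretch had 70.0% G or C and 18 CG dinucleotides, and 78.3% of the 32851 RefSeq windows of that length held fewer. The Gabra4 stretch of 195 bases had 63.6% G or C and 10 CG dinucleotides, more than 71.7% of windows trimmed to the same bases. The Gabrb1 stretch had 50.8% G or C, near the median of 52.4%, and 6 CG dinucleotides, which is also the median. That is the second start of Gabrb1. Upstream of its first start, which faces Gabra4, the 53 bases free of exons had 67.9% G or C, near the value of Gabra2, and 2 CG dinucleotides, more than 64% of windows trimmed to the same bases. RefSeq windows were at hand for 6 of the 7 genes, Gabrd being the other one.

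Total counts ran from 11655697 in Shank3 KO vehicle replicate 2, and from 21071167 in the next library, to 33228089. The knocked-out genes went with the labels: under vehicle, Fmr1 averaged 41.1 ± 2.89 CPM (library-scaled counts; SD, n = 6) in Fmr1 KO and 73.9 ± 4.86 in WT libraries, and Shank3 averaged 168 ± 8.75 in Shank3 KO and 265 ± 19.5 in WT libraries. The deposited gene lengths show that counts cover whole gene bodies, introns included. Marker genes of regions outside the hippocampus differed between libraries: the mean log2 CPM of 8 thalamus and habenula markers ran from 3.65 in Fmr1 KO vehicle to 6.76 in WT CBD, and that of 8 striatal markers from 1.17 to 5.88. In bulk tissue, fewer cells of a type and less RNA per cell cannot be told apart.

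Gene-body levels differed widely among the 7 subunit genes. Per kilobase of deposited gene length, Gabra2 stood first at 2.42 ± 0.410 CPM per kilobase (SD over 36 libraries) and was above Gabrb1 in 36 of 36 libraries. Gabrb1 followed at 1.89 ± 0.229 and Gabra4 at 1.88 ± 0.291, and these neighbours did not differ beyond their spread, with Gabrb1 above Gabra4 in 19 of 36 libraries. Gabrb2 came next at 1.57 ± 0.205, below Gabra4 in 33 of 36 libraries. Gabrd averaged 0.905 ± 0.292, Gabra3 0.243 ± 0.112 and Gabra5 0.0197 ± 0.00813 CPM per kilobase. The order depends on the length used. Per kilobase of joined exons, Gabrb1 was first, followed by Gabrb2, Gabra2, Gabra4, Gabra3, Gabrd and Gabra5, so Gabra5 was last on both scales.

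The level of Gabra5 is the least certain. In the older annotation 90.5% of its span is overlapped by other genes. Its mean count was 52.2 per library, with a range of 17 to 115. How the authors' counting treated overlapping genes and strand is not known from the labels, and its part in the low count of Gabra5 was not tested. None of the other 6 genes had more than 4.26% of its span overlapped.

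**Figure D1:**
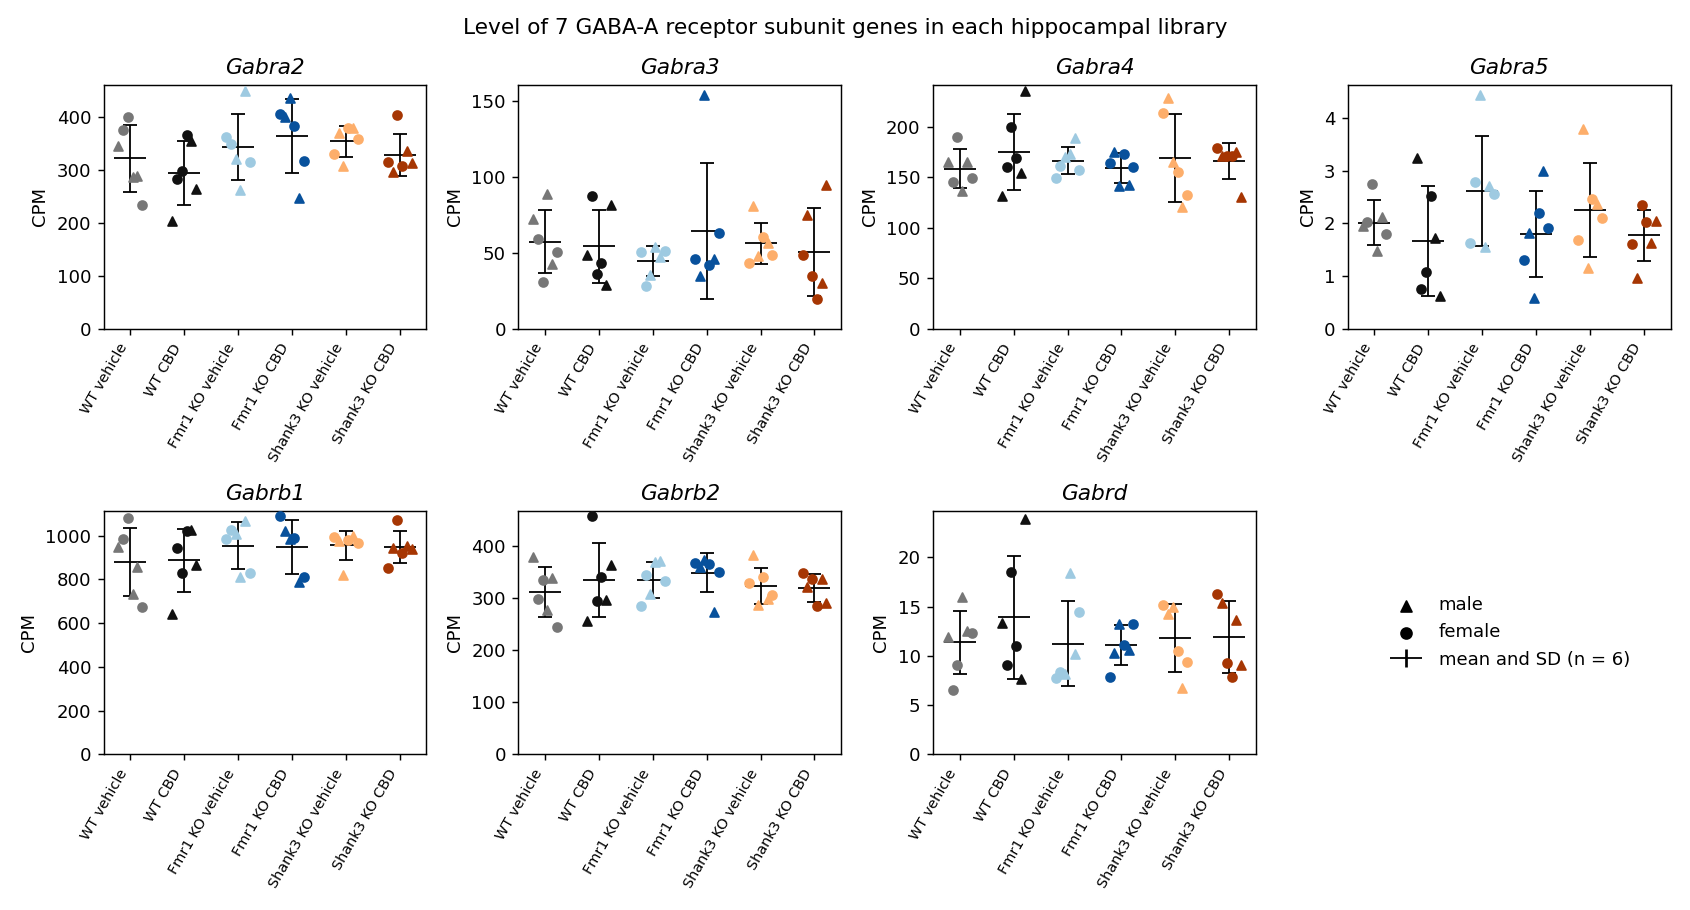
CPM of each subunit gene in each library, by group, on linear axes that start at 0; triangles are males, circles females, and bars give the mean and SD of 6 libraries. The groups overlap for every gene, and 1 Fmr1 KO CBD library stands at 154 CPM for Gabra3.

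Levels of Gabra2, the alpha subunit of synaptic receptors, were between 202.5 and 448.4 CPM over the 36 libraries. Under vehicle, WT libraries ran from 232.9 through a median of 317.5 to 400.0 CPM, Fmr1 KO libraries from 262.3 through 334.5 to 448.4, and Shank3 KO libraries from 308.1 through 363.8 to 378.8. The 3 genotypes overlapped, with the Shank3 KO libraries closest together. Under CBD, WT libraries ran from 202.5 through 290.5 to 366.8 CPM, Fmr1 KO libraries from 247.0 through 391.7 to 435.9, and Shank3 KO libraries from 295.9 through 313.8 to 403.6. Here 4 of 6 Fmr1 KO libraries lay above all WT libraries, and the other 2 lay within the WT range.

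Gabra3 is found in few hippocampal principal cells in rodents and more in other neuron types. It had the highest coefficient of variation of the 7, 46.2% over the 36 libraries, followed by Gabra5 at 41.3%. That order rests on the Fmr1 KO CBD library at 154 CPM described below. Gabra3 group medians under vehicle were 54.6 CPM in WT, 48.9 in Fmr1 KO and 52.6 in Shank3 KO. Under CBD they were 45.9, 45.8 and 41.7 CPM in the same order. The spread within a group was far larger than these gaps: Shank3 KO CBD libraries ran from 19.4 to 94.6 CPM and WT vehicle libraries from 30.8 to 88.6. The highest library was Fmr1 KO CBD replicate 3 at 154 CPM, while the other 5 of its group were between 34.8 and 63.2.

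Gabra4 and Gabrd encode partners in receptors outside synapses of dentate granule cells. Gabra4 group means lay between 158.7 ± 19.1 CPM in WT vehicle and 175.2 ± 37.4 in WT CBD (SD, n = 6). Gabrd group means lay between 11.1 ± 2.02 CPM in Fmr1 KO CBD and 13.9 ± 6.20 in WT CBD. The highest library was the same for both genes, WT CBD replicate 6, with 236.1 CPM of Gabra4 and 23.9 CPM of Gabrd. That library also had the highest thalamus and habenula score, 6.76, and the lowest CA1 score, 4.61, of the 36. Within groups and sexes, Gabra4 and Gabrd had a Pearson r of 0.500 over the 36 libraries, given as a description.

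Gabra5, the alpha subunit of the steady current in pyramidal cells, averaged 2.01 ± 0.420 CPM in WT vehicle, 2.61 ± 1.05 in Fmr1 KO vehicle and 2.26 ± 0.896 in Shank3 KO vehicle (SD, n = 6). Under CBD the means were 1.66 ± 1.05 in WT, 1.80 ± 0.819 in Fmr1 KO and 1.77 ± 0.487 in Shank3 KO. The CBD mean was the lower one in each genotype, and in each genotype the ranges of the treated and vehicle libraries overlapped.

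Gabrb1 and Gabrb2 encode beta subunits, which form the GABA site together with an alpha subunit. They were the steadiest members, with coefficients of variation of 12.1% and 13.1%. Gabrb1 group means ran from 880.0 ± 156 CPM in WT vehicle to 956.1 ± 67.4 in Shank3 KO vehicle, a ratio of 1.09. Gabrb2 group means ran from 311.7 ± 48.4 CPM in WT vehicle to 348.5 ± 37.7 in Fmr1 KO CBD, a ratio of 1.12. For both genes the 6 groups overlapped in range.

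The Fmr1 KO comparison asks whether these subunits were lower in this fragile X model. Under vehicle, 0 of 7 genes were called, against 0.0283% of all genes tested, and 0 had an unadjusted p under 0.05, against 2.24% of all genes. Log2 fold changes were above 0 for 5 genes and below 0 for 2. Their median was 0.09, and that of all genes tested was 0.00. Gabra5 had the largest size, 0.38 (SE 0.344, edgeR adjusted p = 1), followed by Gabra3 at -0.33 (SE 0.326, adjusted p = 1). Gabrb1 was at 0.12 (SE 0.112), Gabrb2 at 0.10 (SE 0.114), Gabra2 at 0.09 (SE 0.140), Gabra4 at 0.07 (SE 0.131) and Gabrd at -0.01 (SE 0.256).

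A p that misses the threshold does not show equal levels, so the intervals matter. The lower end of the 95% interval of the log2 fold change was -0.11 for Gabrb1, -0.13 for Gabrb2, and -0.19 for both Gabra2 and Gabra4. For these 4 genes a loss of gene-body counts larger than that lay outside the interval. Spliced RNA alone and protein were not measured. The lower end was -0.32 for Gabra5, -0.53 for Gabrd and -0.99 for Gabra3, so a fall of Gabra3 to near 1 log2 unit below WT lay just within its interval. No gene had Fmr1 KO libraries all above or all below WT libraries, against 0.128% of all genes tested.

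Under CBD the same comparison of Fmr1 KO with WT called 0 of 7 genes, against 0.0331% of all genes. Gabra2 was the only test of the 112 with a rounded unadjusted p under 0.05. Its log2 fold change was 0.31 (SE 0.140, 95% interval 0.03 to 0.59, edgeR adjusted p = 0.660). Of all genes, 7.4% had an unadjusted p under 0.05 in this comparison and 2.46% had one with a higher level in Fmr1 KO. The direction was a higher level in the KO. The lowest Gabra2 value of the series, WT CBD replicate 1 at 202.5 CPM, bears on it. Without that library the log2 fold change was 0.22 (edgeR adjusted p = 0.467) and its unadjusted p was above 0.05. Over all fits with 1 library left out, the log2 fold change ran from 0.22 to 0.40. Its unadjusted edgeR p ran from 0.0078 to 0.124, so some omissions made the difference stronger. WT CBD replicate 1 also had the lowest Gabrb1 value, 640.0 CPM, and the highest astrocyte marker score, 7.37. Its animal code begins with other letters than the codes of the other WT libraries, and the part of any of this in the Gabra2 difference was not tested.

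The other 6 genes had log2 fold changes in the same comparison of -0.32 for Gabrd (SE 0.255), 0.20 for Gabra3 (SE 0.325), -0.14 for Gabra4 (SE 0.131), 0.13 for Gabra5 (SE 0.352), 0.10 for Gabrb1 (SE 0.112) and 0.06 for Gabrb2 (SE 0.114). The Gabra3 value turned on 1 library. Without Fmr1 KO CBD replicate 3 it was -0.19. Over both treatments, 0 of 7 genes were called, against 0.0378% of all genes. Gabra2 came closest, at 0.20 (SE 0.0990, edgeR adjusted p = 0.955), with 0 members under an unadjusted p of 0.05, against 4.79% of all genes. Over both treatments Gabra5 was at 0.25 (SE 0.246), Gabrd at -0.17 (SE 0.180), Gabrb1 at 0.11 (SE 0.0792), Gabrb2 at 0.08 (SE 0.0803), Gabra3 at -0.07 (SE 0.230) and Gabra4 at -0.03 (SE 0.0925).

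Shank3 KO libraries shared their WT controls with the Fmr1 KO libraries, so the 2 sets of values are not independent. All Shank3 KO libraries carry animal codes that begin with letters found in no WT code, while all WT codes but that of WT CBD replicate 1 begin with the letters of the Fmr1 KO codes, so the Shank3 genotype and the code series cannot be told apart. Under vehicle, 0 of 7 genes were called, against 0.0378% of all genes, and 0 had an unadjusted p under 0.05, against 5.63%. Gabra2 was at 0.14 (SE 0.140), Gabra5 at 0.13 (SE 0.348), Gabrb1 at 0.12 (SE 0.112), Gabra4 at 0.09 (SE 0.131), Gabrd at 0.07 (SE 0.256), Gabrb2 at 0.05 (SE 0.114) and Gabra3 at -0.01 (SE 0.325). Values were above 0 for 6 of 7 genes, with a median of 0.09 beside -0.0005 for all genes. Marker scores moved in the same comparison: the dentate score averaged 4.85 in Shank3 KO vehicle, with a range of 4.56 to 5.12, and 5.39 in WT vehicle, with a range of 5.06 to 5.67. The striatal score averaged 3.31 and 1.95. With the dentate, CA1, striatal and thalamic scores in the model, Gabra3 went from -0.01 to -0.58 (edgeR adjusted p = 0.393, the smallest of any fit) and Gabra5 from 0.13 to 0.59 (adjusted p = 0.576), both with an unadjusted p under 0.05. Gabrd went from 0.07 to -0.26 and Gabrb2 from 0.05 to -0.07, and none of the 7 genes was called in that fit. Gabra5 changed sign in other fits, to -0.06 in limma voom and to -0.05 without Shank3 KO vehicle replicate 2. The sizes in this comparison thus depend on whether marker scores are in the model, and that of Gabra5 also on 1 library.

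Under CBD, 0 of 7 genes were called between Shank3 KO and WT, against 0.0425% of all genes, and 0 had an unadjusted p under 0.05, against 1.65%. The largest sizes were -0.22 for Gabrd (SE 0.254), -0.17 for Gabra3 (SE 0.325) and 0.16 for Gabra2 (SE 0.140). Gabra5 was at 0.11 (SE 0.353), Gabrb1 at 0.10 (SE 0.112), Gabra4 at -0.07 (SE 0.131) and Gabrb2 at -0.06 (SE 0.114). Over both treatments, 0 of 7 were called, against 0.0614% of all genes, and 0 had an unadjusted p under 0.05, against 2.13%. The smallest p there was that of Gabra2, at 0.15 (SE 0.0990, edgeR adjusted p = 1), and the 95% intervals of Gabrb1 and Gabrb2 were -0.05 to 0.27 and -0.17 to 0.16. No gene had Shank3 KO libraries apart from WT libraries under vehicle, against 0.279% of all genes.

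**Figure D2:**
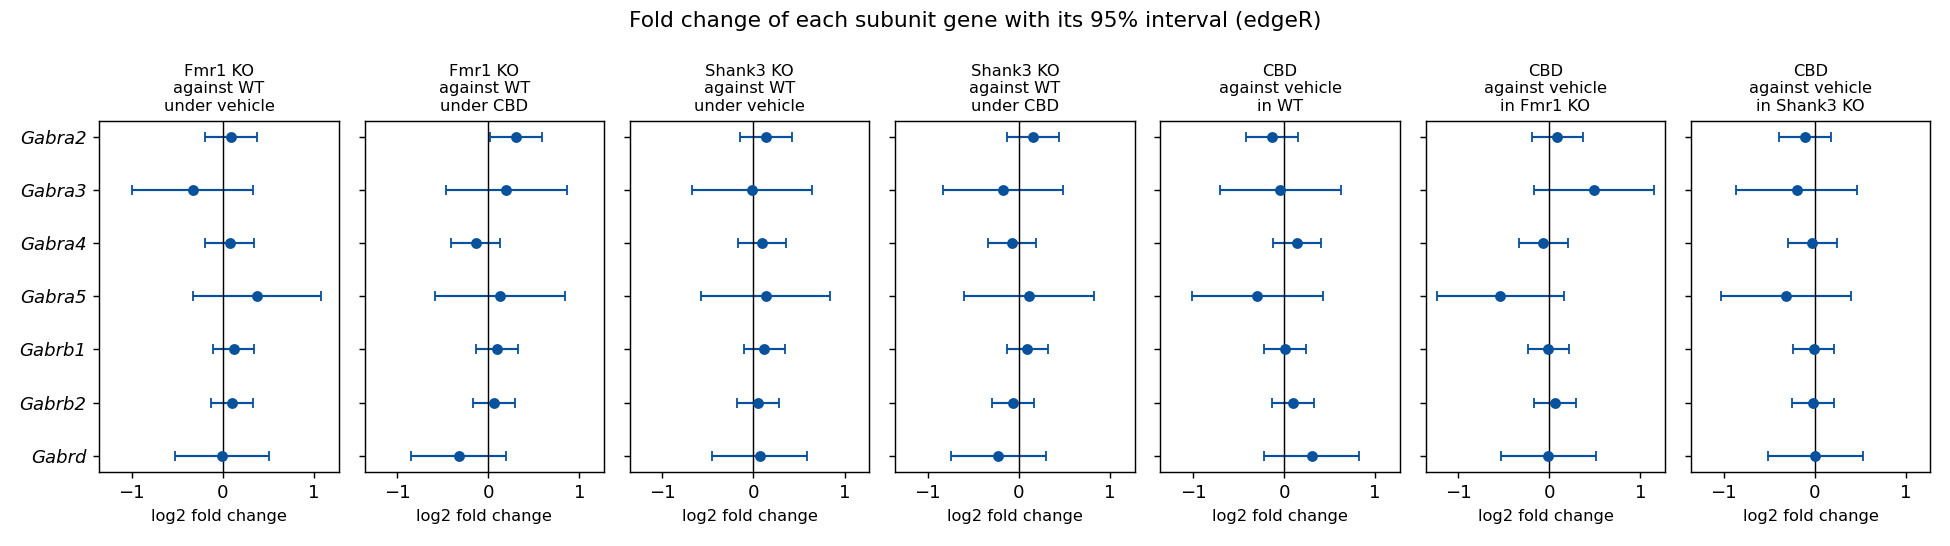
Log2 fold change of each subunit gene (horizontal axis) in 7 comparisons, with 95% intervals from edgeR over 36 libraries; the vertical line marks no difference. Only the interval of Gabra2 for Fmr1 KO against WT under CBD, 0.03 to 0.59, does not hold 0, and that difference did not pass the adjusted threshold.

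CBD was compared with vehicle within each genotype. In each of the 3 genotypes 0 of 7 genes were called, and in each 0% of all genes were called by edgeR, with 0 also by DESeq2 and by limma voom. Unadjusted p-values under 0.05 were found for 0 of 7 genes in each genotype, against 2.68% of all genes in WT, 2.64% in Fmr1 KO and 4.41% in Shank3 KO. Gabra5 had the same direction in the 3 genotypes, with log2 fold changes of -0.29 in WT (SE 0.352), -0.54 in Fmr1 KO (SE 0.345) and -0.31 in Shank3 KO (SE 0.349). With the marker scores in the model these were -0.15, -0.44 and -0.82, the last with an unadjusted p under 0.05 (edgeR adjusted p = 0.413). Over the 3 genotypes it was -0.38 (SE 0.201, 95% interval -0.79 to 0.03, edgeR adjusted p = 1), the smallest p of the 7 genes in that comparison, and -0.47 with the marker scores in the model (adjusted p = 0.552, unadjusted p under 0.05). It rests on counts of 17 to 115 per library, and 0 of 7 genes were called there, against 0.0189% of all genes. An unadjusted p under 0.05 was found for 0 of 7, against 3.16%.

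The direction of Gabra3 differed between genotypes, with log2 fold changes under CBD of -0.04 in WT (SE 0.325), 0.49 in Fmr1 KO (SE 0.325) and -0.20 in Shank3 KO (SE 0.325). The Fmr1 KO value was 0.10 without Fmr1 KO CBD replicate 3. Gabrd was at 0.30 in WT (SE 0.255), -0.01 in Fmr1 KO (SE 0.255) and 0.01 in Shank3 KO (SE 0.255). Gabra2 was at -0.13, 0.09 and -0.11 in the 3 genotypes in the same order, each with an SE of 0.140. Gabra4 was at 0.14, -0.07 and -0.02, each with an SE of 0.131. Gabrb1 was at 0.01, -0.01 and -0.01 (SE 0.112 each), and Gabrb2 at 0.10, 0.06 and -0.02 (SE 0.114 each). Over the 3 genotypes the 95% interval of Gabrb1 was -0.13 to 0.13 and that of Gabrb2 -0.09 to 0.18. Over the 3 genotypes Gabrd was at 0.10 (SE 0.147), Gabra3 at 0.08 (SE 0.188), Gabra2 at -0.05 (SE 0.0809) and Gabra4 at 0.02 (SE 0.0755).

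Whether the CBD effect differed between a knockout and WT was tested directly. For Fmr1 KO, 0 of 7 genes were called, with 0% of all genes called, and the smallest p was that of Gabra3, a difference of 0.53 (SE 0.460, edgeR adjusted p = 0.993). For Shank3 KO, 0 of 7 were called, with 0% of all genes called, and the smallest p was that of Gabra4, at -0.17 (SE 0.185, edgeR adjusted p = 0.918). Unadjusted p-values under 0.05 were found for 0 of 7 genes in both, against 3% and 4.74% of all genes. Each of these comparisons uses the same WT libraries.

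Sex and dose were compared in a model with 1 term per genotype, treatment and sex. In males over the 3 genotypes CBD called 0 of 7 genes, with 0% of all genes called, and in females 0 of 7, against 0.0142%. The smallest p in males was that of Gabra5, at -0.43 (SE 0.302, edgeR adjusted p = 0.738), and in females that of Gabrb2, at 0.16 (SE 0.0933, adjusted p = 0.984). For the difference between the sexes, 0 of 7 were called, with 0% of all genes called. Gabrb2 had the smallest p there, 0.23 higher in females (SE 0.132, edgeR adjusted p = 0.659). Between females and males under vehicle, 0 of 7 were called, against 0.0331%, and the smallest p was that of Gabrd, at -0.27 in females (SE 0.223, edgeR adjusted p = 1). Unadjusted p-values under 0.05 were found for 0 of 7 genes in these 4 comparisons, against 6.97% of all genes for CBD in males, 3.07% for CBD in females, 7.4% for the difference and 2.74% for females against males.

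Other genes of GABA signalling gave no call either. Of 12 further GABA-A subunit genes 10 were tested, the other 2 being Gabra6 and Gabrp, and 0 were called in any of the 16 comparisons. In Fmr1 KO against WT under vehicle their values were above 0 for 6 and below 0 for 4, with a median of 0.07. In Shank3 KO against WT under vehicle they were above 0 for 4 and below 0 for 6, with a median of -0.03, and Gabrg3 had an unadjusted p under 0.05 (log2 fold change 0.50, SE 0.218, edgeR adjusted p = 0.854).

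The remaining lists were 9 genes of GABA synthesis, transport and breakdown, 5 of GABA-B receptors, 20 of receptor assembly and the inhibitory synapse scaffold, and 9 of chloride transport. Of these, 0 were called in any of the 16 comparisons. With the 10 further subunits they made 53 genes and 848 tests, of which 27 had an unadjusted p under 0.05 in edgeR. Of all genes, between 1.65% and 7.4% had one in each of the 16 comparisons. In Fmr1 KO against WT under CBD, 3 of 9 chloride transport genes were lower at an unadjusted p under 0.05, against 4.94% of all genes, and the list's median was -0.15 beside 0.00 for all genes. The smallest p was that of Slc12a2, the cotransporter that carries chloride into cells, at -0.61 (SE 0.207, edgeR adjusted p = 0.654), followed by Wnk1, a kinase that regulates such transporters, at -0.26 (SE 0.0953, adjusted p = 0.654), and Car2, a carbonic anhydrase, at -0.35 (SE 0.172, adjusted p = 0.669). Marker scores moved both ways in the same comparison. Those of astrocytes, CA1 neurons, interneurons and microglia averaged higher in Fmr1 KO CBD, and those of the other lists averaged lower. The oligodendrocyte score averaged 7.00 in Fmr1 KO CBD, from 5.35 in replicate 3 to 7.76. It averaged 7.83 in WT CBD, with a range of 7.46 to 8.43. The choroid plexus score averaged 3.53 in Fmr1 KO CBD, with a range of 0.989 to 6.22. In WT CBD it averaged 4.81, with a range of 0.219 to 6.82. The part of the marker scores in the chloride transport values was not tested. For the CBD effect in males, 2 of 20 scaffold genes were higher at an unadjusted p under 0.05, against 4.61% of all genes. They were Nlgn2, an adhesion protein of inhibitory synapses, at 0.28 (SE 0.108, adjusted p = 0.709), and Lhfpl4, which anchors synaptic GABA-A receptors, at 0.17 (SE 0.0663, adjusted p = 0.709). Gad2, an enzyme that makes GABA, was at 0.44 in Shank3 KO against WT under vehicle (SE 0.192, adjusted p = 0.854) and at -0.40 for CBD in Shank3 KO (SE 0.192, adjusted p = 0.964), both with the Shank3 KO vehicle libraries in common. The striatal score moved the same way, with means of 3.31 in Shank3 KO vehicle, 1.95 in WT vehicle and 2.24 in Shank3 KO CBD, and its part in the Gad2 values was not tested.

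Variation between mice within a group was described by the correlation of log2 CPM over the 36 libraries after the group and sex means were removed. These are descriptions, since the genes share libraries and depth. Gabra2 and Gabrb1 had an r of 0.885, the highest of the 21 pairs of members. Gabra4, whose start faces that of Gabrb1, had an r of 0.239 with Gabrb1 and 0.160 with Gabra2. The highest value was thus that of the more distant pair. Gabrb1 and Gabrd were opposed, with an r of -0.525, as were Gabra3 and Gabra5, at -0.485. Among the other subunits, Gabrb2 had an r of 0.805 with Gabrg3, and Gabra3 one of 0.809 with Gabrg1, an r of 0.672 with Gabrq, and -0.510 with Gabrr3.

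**Figure D3:**
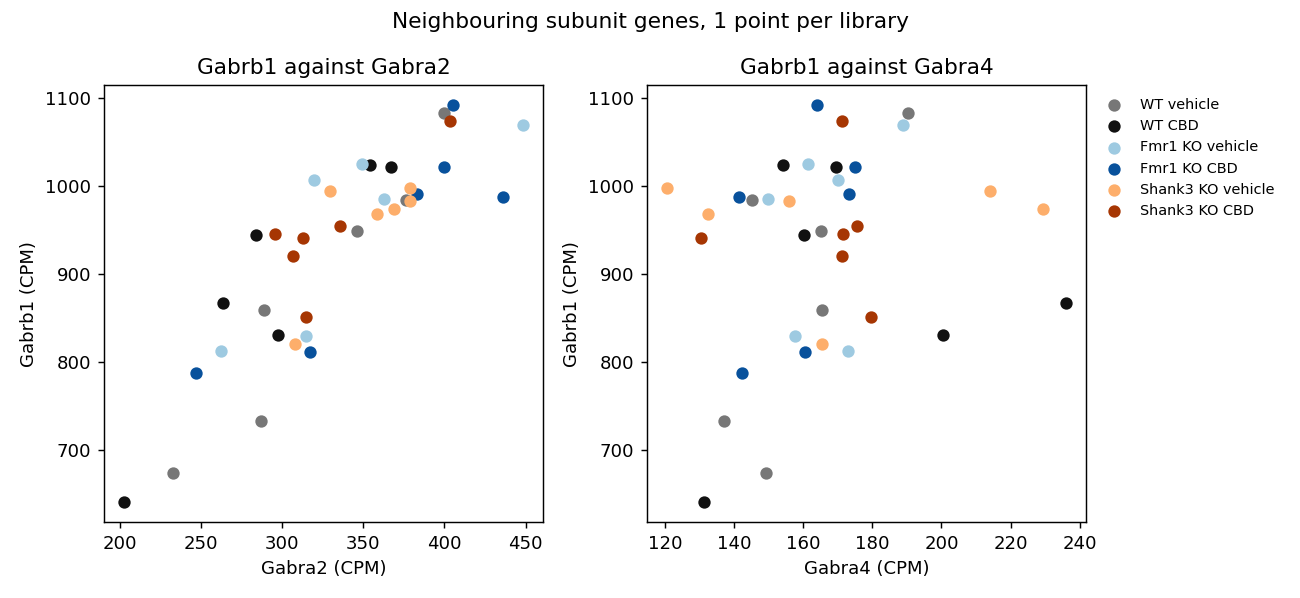
CPM of Gabrb1 (vertical axis) against Gabra2 (left) and Gabra4 (right), 1 point per library, coloured by group. Points rise together for Gabra2 (r = 0.885 with group and sex means removed) and scatter for Gabra4 (r = 0.239).

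The genes most like each member were sought among the other genes with a mean of at least 5 CPM, 11099 for Gabra5, which is itself below that level, and 11098 for each of the other 6. For Gabra2 they were Nkain3 (r = 0.918), 4933412O06Rik (0.904) and Gm26652 (0.888), and for Gabrb1 they were 4933412O06Rik (0.895), Gabra2 (0.885) and Nkain3 (0.864). The first 2 names thus appear beside both genes. For Gabra3 they were Gap43 (0.940), a protein of growing axons, Atp2b4 (0.918), a calcium pump, and Cntnap3 (0.917). For Gabra4 they were Thsd7a (0.860), Spock3 (0.851) and Pitpnc1 (0.815), and for Gabrd Pdp1 (0.804), Gpr153 (0.780) and Sun2 (0.751). For Gabrb2 they were Hecw1 (0.904), Gm38393 (0.898) and Strbp (0.875), and for Gabra5 Nckap1 (0.886), Actr3 (0.844) and Csnk1a1 (0.840). No gene appears beside 2 members other than those of the Gabra2 and Gabrb1 pair.

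Members were then set against the mean log2 CPM of marker lists in 77 relations, each with a permutation p (100000 permutations, two-sided) adjusted over the 77. Striatal scores fell into separate clusters of libraries, so no r is given for them. By rank, Gabra3 and Gabrd rose with the striatal score, with Spearman rho = 0.537 and 0.514 (adjusted permutation p = 0.00808 and 0.0136). Gabra5 fell with it, with rho = -0.506 (adjusted permutation p = 0.0145). Of the other 70 relations, 10 passed the adjusted threshold by both Pearson's and Spearman's coefficient, and all 10 had an unadjusted permutation p under 0.05 without the 2 most extreme libraries. Gabra3 fell as markers of CA3 pyramidal neurons rose, with Pearson r = -0.798 and Spearman rho = -0.768 over 36 libraries (permutation p = 1e-05 for both, the smallest these permutations can give, adjusted p = 0.000385 for both). Without the 2 libraries with the most extreme CA3 score, r was -0.735 (permutation p = 1e-05), and with group and sex means removed it was -0.822. With the dentate granule score r was -0.744 and rho -0.708 (permutation p = 1e-05 and 2e-05, adjusted p = 0.000385 and 0.000513), and -0.624 without the 2 extreme libraries. With interneuron markers the relation was positive, with r = 0.657 and rho = 0.766 (permutation p = 3e-05 and 1e-05, adjusted p = 0.00077 and 0.000385), and 0.640 without the 2 extreme libraries. Fmr1 KO CBD replicate 3, the library with 154 CPM of Gabra3, had the lowest CA3 score, 3.54, and the lowest dentate score, 2.90, of the 36. What part the share of each region in the dissected tissue had in these relations was not tested.

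**Figure D4:**
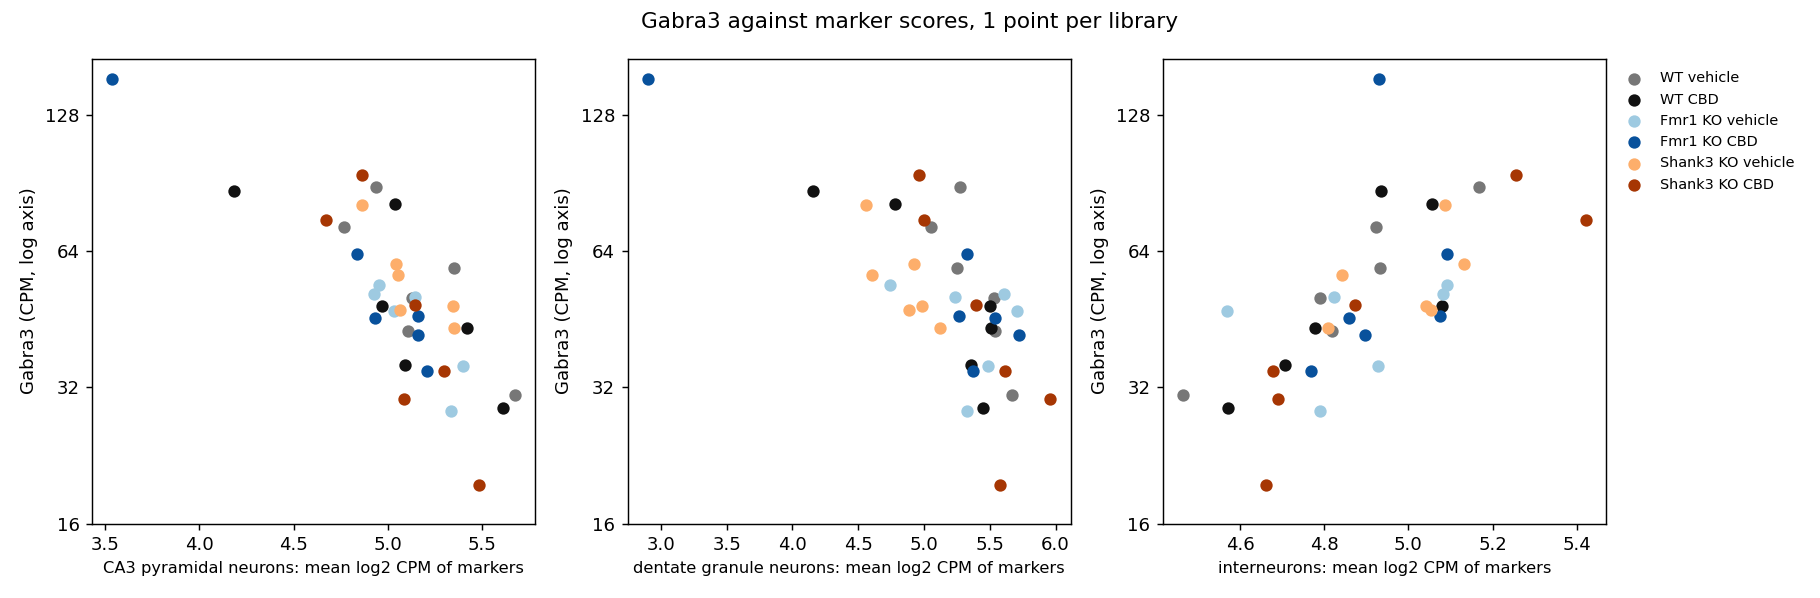
Gabra3 level (CPM, log axis) against the mean log2 CPM of CA3, dentate granule and interneuron markers, 1 point per library, coloured by group. Gabra3 falls along the first 2 axes (r = -0.798 and -0.744) and rises along the third (r = 0.657), with the 6 groups mixed.

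Gabra4 and Gabrd, both known from dentate granule cells, had no relation to the dentate score that passed the adjusted threshold, with r = 0.144 (rho = 0.248, permutation p = 0.393 and 0.145, adjusted p = 0.561 and 0.272) and r = -0.140 (rho = -0.151, permutation p = 0.421 and 0.375, adjusted p = 0.568 and 0.496). Both rose with thalamus and habenula markers, and Gabrd also rose by rank with striatal markers, as given above. For Gabrd r was 0.613 and rho 0.457 (permutation p = 4e-05 and 0.0054, adjusted p = 0.00077 and 0.0335), and r was 0.492 without the 2 extreme libraries (permutation p = 0.00297). For Gabra4 r was 0.565 and rho 0.386 (permutation p = 0.00046 and 0.0202, adjusted p = 0.00452 and 0.0633), and r was 0.331 without the 2 extreme libraries (permutation p = 0.0554), so this relation rests on them. Gabra4 was also lower where CA1 markers were higher, with r = -0.538 and rho = -0.456 (permutation p = 0.0008 and 0.00565, adjusted p = 0.0056 and 0.0335). Without the 2 extreme libraries r was -0.340 (permutation p = 0.0497), so this relation leans on them as well.

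Gabra2, Gabrb1 and Gabrb2 were lower where astrocyte markers were higher, with r = -0.532, -0.549 and -0.562 (permutation p = 0.00079, 0.00061 and 0.00033, adjusted p = 0.0056, 0.00522 and 0.00423). Spearman rho was -0.396, -0.412 and -0.472, with adjusted p = 0.0633, 0.0592 and 0.0295. Without the 2 extreme libraries r was -0.329, -0.377 and -0.446 (permutation p = 0.0574, 0.0272 and 0.00798), so the Gabra2 relation rests on them. Gabra5 rose with CA1 markers, with r = 0.510 and rho = 0.427 (permutation p = 0.00186 and 0.00941, adjusted p = 0.0102 and 0.0518), but r was 0.318 without the 2 extreme libraries (permutation p = 0.0671). Its relations to the CA3 score (r = 0.570, rho = 0.353, adjusted permutation p = 0.00452 and 0.0905) and the dentate score (r = 0.529, rho = 0.346, adjusted permutation p = 0.00731 and 0.0936) went to 0.270 and 0.207 without the 2 extreme libraries of each score and rest on those libraries. Gabra5 was lower where thalamus and habenula markers were higher, with r = -0.463 and rho = -0.587 (adjusted permutation p = 0.0261 and 0.004). It was also lower where cerebellar markers were higher, with r = -0.447 and rho = -0.573 (adjusted permutation p = 0.029 and 0.004). Without the 2 extreme libraries of each score, r was -0.347 for thalamus and habenula and -0.362 for cerebellum (permutation p = 0.0435 and 0.0359). Both relations thus lean on those libraries. The cerebellar score was low, with group means from -0.349 to 0.207 log2 CPM over 4 tested markers. Gabra2 was lower with higher oligodendrocyte markers, with r = -0.519 and rho = -0.564 (adjusted permutation p = 0.00936 and 0.00552), and Gabrb1 with higher interneuron markers, with r = -0.411 and rho = -0.553 (adjusted permutation p = 0.0476 and 0.00561).

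**Figure D5:**
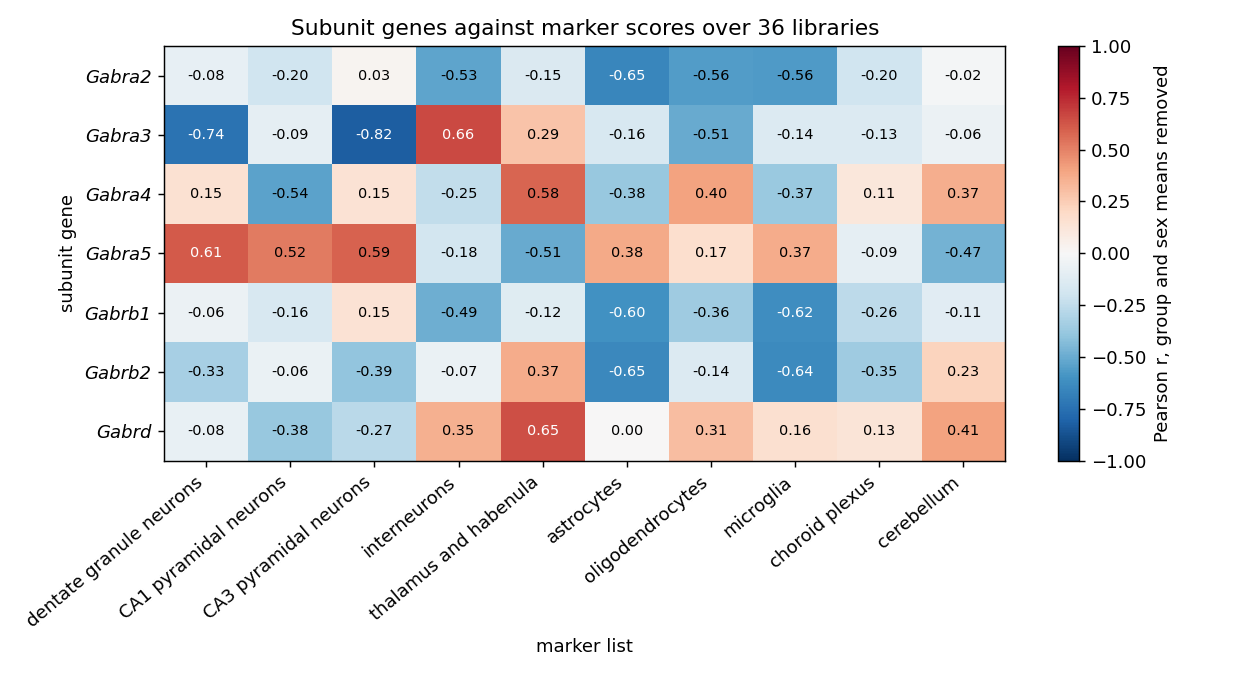
Pearson r between the log2 CPM of each subunit gene (rows) and the mean log2 CPM of each marker list (columns) over 36 libraries, with group and sex means removed; red is positive and blue negative. Gabra3 has the strongest values, -0.82 with CA3 and -0.74 with dentate markers. Gabra2, Gabrb1 and Gabrb2 share negative values with astrocyte markers and with microglia markers.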

How the data were processed

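RNA from hippocampal tissue of 36 mice was sequenced. The authors deposited raw read counts per gene with gene lengths and a metadata sheet that gave sex. FastQC, STAR 2.7.11b, build GRCm39 and featureCounts 2.0.8 are named in the submitters' processing notes. Settings for strand and overlapping genes, and the gene annotation, are not named there. Of 20339 coding genes with introns, 98.1% had a deposited length within 5% of the gene span in GENCODE M21, which was used for names and gene models.

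The deposited counts went into edgeR 4.0.16 (R 4.3.3): filterByExpr, TMM, and a quasi-likelihood test over all 36 libraries with 1 coefficient per group and an additive sex term, or 1 per genotype, treatment and sex. The fit was tested on simulated data. P-values were adjusted (Benjamini-Hochberg) over the 21172 genes tested, and a gene was called under 0.05. SEs came from the information matrix scaled by the moderated variance, and intervals are 95%. CPM used TMM-scaled totals, and marker scores are means of log2 CPM with a prior count of 2. The 7 members were named in the knockout and CBD comparisons whatever their values, and elsewhere the one with the smallest p. Genes of other lists were named by smallest p, and some results are not reported here. The members, lists and tests were chosen with earlier results of these data known. The alternatives were other scaling, filters, tools, sample sets and covariates, a replicate block and each library left out.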

Additional observations from a re-analysis of the deposited data

Results flagged for a closer look

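In 5 of the 42 sets of 6 libraries (7 genes in 6 groups) the highest or lowest library stood apart from the other 5 by Dixon's test at its 95% critical value, which by chance happens in about 1 in 20 sets. Gabra3 stood at 154.0 CPM in Fmr1 KO CBD replicate 3, where the other 5 libraries were between 34.8 and 63.2 CPM. Gabra2 stood at 403.6 CPM in Shank3 KO CBD replicate 3, the highest of its group. Gabra4 stood at 130.4 CPM in Shank3 KO CBD replicate 6, the lowest of its group, where the other 5 were between 171.3 and 179.5 CPM. Gabrb1 stood at 820.4 CPM in Shank3 KO vehicle replicate 3, below the other 5 at 968.4 to 997.3 CPM. Gabrb2 stood at 273.3 CPM in Fmr1 KO CBD replicate 5, below the other 5 at 350.2 to 373.4 CPM. These 5 values lie in 5 genes and in 5 libraries, and the cause of each was not tested.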

How the results depend on the processing

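The count of called members was 0 in each of the 16 comparisons under every alternative run, 438 counts in all, and 0 of 1716 member fold changes passed the threshold, the smallest adjusted p in any fit being 0.393. Of values that were uncalled throughout, 25 of 618 changed sign under another setting and 87 of 1098 when 1 library was left out, and the largest that did so was 0.199 in size. The sign changes of values over 0.1 concerned Gabra3, Gabra4 and Gabra5. With marker scores as covariates, Gabra3 for CBD in Shank3 KO went from -0.20 to 0.32 and Gabra5 from -0.31 to -0.82, without a call. Group means on total counts moved by at most 3.4%. Whether the replicate numbers pair the mice could not be decided, since same-numbered libraries were more alike than others in some comparisons and less alike in others. Their mean r ran from -0.0911 for CBD in WT (0.0184 for other-numbered pairs) to 0.146 for CBD in Shank3 KO (-0.0297 for other-numbered pairs). At most 4 of 6 same-numbered pairs had a correlation over 0.1 in any comparison. With a replicate block 0 members were called. Counts of all genes called moved more. With marker covariates they were 26 in place of 8 for Shank3 KO under vehicle, 20 in place of 13 over both treatments, and 1 in place of 0 for CBD in Shank3 KO and for its difference from WT. With only the compared groups they were 4 in place of 7 for Fmr1 KO under CBD and 5 in place of 9 for Shank3 KO under CBD. With the strict filter (10 counts in 30 libraries) they were 4 for Fmr1 KO under CBD, 4 in place of 8 over both treatments, 0 in place of 4 for CBD over the genotypes, 0 in place of 3 for CBD in females and 3 in place of 7 between the sexes. DESeq2 called 13 for Fmr1 KO over both treatments, 9 for CBD over the genotypes and 7 for CBD in females, where limma voom also called 7. Voom called 11 between the sexes. For CBD over the genotypes the count was 0 without the sex term, 1 with the replicate block and 1 to 5 when a library was left out. The cause of these shifts was not tested. Depth limited Gabra5 most, with 17 to 115 counts per library.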
